A study of Mus musculus with 16 samples.

Results

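10 genes of the insulin-like growth factor (IGF) system were followed in cultured neural stem/progenitor cells (NSPCs) of the adult mouse subventricular zone (SVZ): the binding proteins *Igfbp2*, *Igfbp3*, *Igfbp4*, *Igfbp5*, *Igfbp6* and *Igfbp7*, the receptors *Igf1r*, *Igf2r* and *Insr*, and the receptor adaptor *Irs2*. They were taken by gene symbol, in a list made with earlier results of these data known. Their share of called genes beside that of all genes is therefore a description. All 10 were rows of the 30386 genes of the expression table. The samples came from C57BL/6J/Babr mice of 3 months of age, and the cells carried either a control *GFP* transgene (*GFP*-NSPCs, 8 samples) or a *Dbx2* transgene, which encodes a homeodomain transcription factor (*Dbx2*-NSPCs, 8 samples). Both kinds of cells had been nucleofected with a plasmid (pTP6-hrGFP or pTP6-Dbx2), selected with puromycin and grown as non-adherent cultures with EGF and FGF2. The study derived 2 independent pairs of transgenic lines and grew 4 cultures of each, but the labels give a sample only a number from 1 to 8 and not its line. The samples numbered 1 to 4 and those numbered 5 to 8 are therefore called the 2 sets of numbers here, and a difference between the sets cannot be told apart from a difference between lines or between rounds of culture.

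IGF1, IGF2 and insulin are secreted ligands that signal through the receptor tyrosine kinases IGF1R and INSR. The activated receptors phosphorylate adaptors such as IRS1 and IRS2, which recruit PI3K and start the Akt and mTORC1 branches, while Akt keeps FoxO factors out of the nucleus. The IGF-binding proteins hold most extracellular IGF, prolong its life and limit its access to IGF1R, until proteases such as PAPP-A or the HTRA family release it. IGF2R is a clearance receptor that carries IGF2 and mannose 6-phosphate-tagged enzymes to the lysosome. In the adult SVZ, IGF ligands reach progenitors from the cerebrospinal fluid, the vessels and neighbouring cells. The B27 supplement used in such cultures contains insulin.

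The libraries covered only the 3' ends of messenger RNAs, and values are CPM, read counts scaled to a common library total. The control libraries held 1803928 to 3258885 reads and the *Dbx2* libraries 2214008 to 3293285, so that 1 read was worth 0.304 to 0.554 CPM. *Dbx2* itself averaged 77.2 ± 51.8 CPM in the control cells and 155 ± 35.4 CPM in the cells with the transgene (SD, n = 8 each). Its log2 fold change was 1.26 (SE 0.32, adjusted p = 0.00978), and it was higher in the *Dbx2* sample of 8 of 8 numbers. The groups overlapped, since the *GFP* sample numbered 1, at 171.22 CPM, was above 7 of the 8 *Dbx2* samples. The size of this difference itself differed between the sets: the log2 fold change was 0.54 in numbers 1 to 4 (adjusted p = 0.0891, or 0.00557 with the number as a block) and 1.99 in numbers 5 to 8 (adjusted p = 5.67e-08), and the difference of 1.45 passed the test (adjusted p = 0.000104). The mean level of *Dbx2* in the control cells was 120 CPM in numbers 1 to 4 and 34.0 CPM in numbers 5 to 8. In the cells with the transgene it was 173.5 and 136 CPM. The larger fold in numbers 5 to 8 thus went with a lower control level and not with a higher measured level with the transgene. Whether reads of 3' ends count all transcripts of the transgene was not tested. Markers of the progenitor list (11 of 11 tested) summed to 7627 to 9431 CPM with *GFP* and 6502 to 8222 CPM with *Dbx2*. Of these, *Gfap* was called higher in *Dbx2*-NSPCs (5.77 against 42.6 CPM in the means) and *Fabp7* (1129 against 731 CPM), *Slc1a3* (1026 against 484.5 CPM) and *Egfr* (237 against 173 CPM) lower. The summed markers of microglia reached at most 2.89 CPM and those of mural cells and fibroblasts at most 6.82 CPM. Endothelial markers summed to 1.34 to 12.6 CPM with *GFP* and 4.81 to 19.9 CPM with *Dbx2*, with *Cldn5* and *Cdh5* at 0 in every library and *Flt1* called higher with *Dbx2* (1.18 against 6.84 CPM, log2 fold change 2.29, adjusted p = 0.000347). Ependymal and choroid plexus markers summed to 10.99 to 37.4 CPM and 15.8 to 77.1 CPM, oligodendrocyte markers to 54.7 to 112 CPM and 100 to 183 CPM, and neuroblast and neuron markers to 840 to 1294 CPM and 706 to 906 CPM, each in the same order of groups. A single gene carried most of each of the last 2 sums: *Cnp* (74.2 and 131 CPM in the means, called higher) for oligodendrocytes, where *Mog* was at 0, and *Map2* (1053 and 751 CPM, called lower) for neurons, where *Dcx* was at 2.14 and 2.41 CPM. Of the oligodendrocyte list *Mobp*, at a low level, was also called higher with *Dbx2* (0.12 against 2.49 CPM, log2 fold change 2.06, adjusted p = 0.000817). Of the ependymal and choroid plexus list *Ccdc153* alone was called, and it was higher (1.43 against 5.41 CPM, log2 fold change 1.75, adjusted p = 0.0102). *Ttr* of the same list was at 1.44 and 6.40 CPM in the means, with a highest value of 38.85 CPM, and was not called (adjusted p = 0.49). The part of these lists in the results on the IGF system was not tested. In bulk RNA, fewer cells of a type and less RNA per cell cannot be told apart.

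Among the binding proteins and receptors, the most distinct differences were in a pair of binding proteins that moved in opposite directions. *Igfbp4* was 7.0-fold higher in *Dbx2*-NSPCs and *Igfbp3* was 1.94-fold lower, and neither showed any overlap between the 8 *GFP* and the 8 *Dbx2* samples. *Insr* was 1.41-fold lower with a small margin over the threshold. *Igfbp2* was higher in *Dbx2*-NSPCs in numbers 5 to 8, and *Igf1r* and *Irs2* did not pass over all samples or in either set. *Igfbp5*, *Igf1r* and *Igf2r* stood 1.5-fold to 5.15-fold higher in the samples numbered 5 to 8 than in those numbered 1 to 4, with either transgene. 8 of the members, *Igfbp2* to *Igfbp5* and the 4 receptor and adaptor genes, passed the filter of over 1 CPM in 4 or more of all 16 samples and were tested, and *Igfbp6* and *Igfbp7* did not pass it. Over all 16 samples, 3 of the 8 tested genes passed the limma test at an adjusted p under 0.05, where 15.8% of the 12533 tested genes did. Of the 3, 1 was higher and 2 were lower in *Dbx2*-NSPCs, beside 8.03% of all tested genes higher and 7.78% lower. Groups without any overlap were seen for 2 of the 8, against 3.41% of all tested genes. The median log2 fold change was 0.03 over the 8 and -0.02 over all tested genes.

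The promoters of the genes that differed most are given first, from RefSeq on build GRCm38.p6, each running from 250 bases before to 50 bases after a transcription start, 5′ to 3′ on the strand of the gene. Of the 10 members, 9 matched a promoter in the table and together had 10 of them (*Igfbp2* has 2). Capitals mark each match, on either strand, to the motifs that were searched: the homeodomain core TAATTA, the TATA box TATAAA, the FoxO site TGTTTAC and the E-box CACGTG. *Igfbp4* and *Igfbp3* are shown because they moved in opposite directions with the transgene, *Igfbp2* because it differed in numbers 5 to 8, and *Igfbp5*, *Igf1r* and *Igf2r* because they moved together with the set of numbers. The windows are chr11:99040994-99041293 (plus strand) for *Igfbp4*, chr11:7213874-7214173 (minus) for *Igfbp3*, chr1:72824230-72824529 (plus) for *Igfbp2*, chr1:72874816-72875115 (minus) for *Igfbp5*, chr7:67952007-67952306 (plus) for *Igf1r* and chr17:12769657-12769956 (minus) for *Igf2r*.
Igfbp4: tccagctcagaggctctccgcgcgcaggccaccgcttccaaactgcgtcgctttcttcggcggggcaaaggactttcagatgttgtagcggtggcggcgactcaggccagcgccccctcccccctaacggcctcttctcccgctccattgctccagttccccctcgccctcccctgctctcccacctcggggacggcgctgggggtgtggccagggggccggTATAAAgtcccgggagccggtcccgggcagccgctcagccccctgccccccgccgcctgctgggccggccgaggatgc
Igfbp3: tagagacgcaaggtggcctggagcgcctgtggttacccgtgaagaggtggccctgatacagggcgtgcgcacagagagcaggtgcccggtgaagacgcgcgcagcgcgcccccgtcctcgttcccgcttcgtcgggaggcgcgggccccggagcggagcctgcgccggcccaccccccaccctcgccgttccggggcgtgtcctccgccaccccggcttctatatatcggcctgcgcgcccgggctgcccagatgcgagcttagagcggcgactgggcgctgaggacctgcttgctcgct
Igfbp2: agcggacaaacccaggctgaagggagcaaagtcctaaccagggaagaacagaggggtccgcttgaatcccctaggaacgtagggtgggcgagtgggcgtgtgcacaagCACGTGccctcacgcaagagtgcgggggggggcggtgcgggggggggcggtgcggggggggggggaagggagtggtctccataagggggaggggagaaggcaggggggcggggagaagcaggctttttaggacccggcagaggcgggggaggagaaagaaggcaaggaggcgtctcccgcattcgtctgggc
Igfbp5: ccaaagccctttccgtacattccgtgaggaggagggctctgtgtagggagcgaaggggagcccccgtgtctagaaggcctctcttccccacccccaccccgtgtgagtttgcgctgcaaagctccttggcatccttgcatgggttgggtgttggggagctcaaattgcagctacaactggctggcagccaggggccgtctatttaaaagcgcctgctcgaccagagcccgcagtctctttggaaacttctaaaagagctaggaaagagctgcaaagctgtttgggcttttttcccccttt
Igf1r: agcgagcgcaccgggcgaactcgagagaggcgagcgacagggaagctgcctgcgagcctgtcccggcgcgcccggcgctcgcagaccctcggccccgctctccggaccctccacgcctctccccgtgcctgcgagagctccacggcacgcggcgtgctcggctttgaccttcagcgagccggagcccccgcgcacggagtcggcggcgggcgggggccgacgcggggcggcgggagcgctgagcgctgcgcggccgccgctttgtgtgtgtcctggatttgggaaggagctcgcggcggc
Igf2r: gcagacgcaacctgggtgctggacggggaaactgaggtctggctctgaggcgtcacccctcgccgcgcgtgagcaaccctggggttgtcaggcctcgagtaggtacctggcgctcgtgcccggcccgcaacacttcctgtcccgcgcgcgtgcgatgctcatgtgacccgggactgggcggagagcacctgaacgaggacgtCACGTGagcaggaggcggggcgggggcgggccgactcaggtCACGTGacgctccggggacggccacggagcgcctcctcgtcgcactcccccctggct

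The homeodomain core was in 0 of the 10 member promoters and in 5.29% of all 32851 promoters of that length. The TATA box letters TATAAA stood in the promoter of *Igfbp4*, a short distance before its start. In that of *Igfbp6* the match was on the other strand (TTTATA). Of all promoters, 13.6% held a match on either strand. The search was for these exact letters, so other forms of a TATA box were not counted. The FoxO site was in 0 of the 10, against 3.65% of all. The E-box occurred 2 times in the *Igf2r* window and once each in those of *Irs2* and the first *Igfbp2* start, and 7.15% of all promoters held at least 1. These are matches of letters in short windows and say nothing on which factor was bound. The windows of *Igfbp4* (71.3% G and C, 27 CpG), *Igfbp3* (71.7%, 37 CpG), *Igf1r* (76.0%, 48 CpG) and *Igf2r* (70.7%, 34 CpG) were rich in G and C beside the median of 52.7% over all promoters. That of *Igfbp5* had 56.3% and 10 CpG.

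*Igfbp4* (ENSMUSG00000017493, chr11:99041244-99054392, plus strand) encodes a binding protein that inhibits IGF action and is inactivated by PAPP-A. In the *GFP*-NSPCs numbered 1 to 4 it was at 111.19, 32.45, 31.28 and 35.99 CPM, and in those numbered 5 to 8 at 100.3, 71.16, 43.71 and 31.67 CPM. In *Dbx2*-NSPCs the values were 454.63, 363.6, 289.16 and 144.6 CPM in numbers 1 to 4 and 343.53, 441.7, 462.74 and 514.22 CPM in numbers 5 to 8. The lowest *Dbx2* sample was thus above the highest *GFP* sample, and the *GFP* samples numbered 1 and 5 were the closest to the *Dbx2* range. The means were 57.2 ± 32.8 and 377 ± 119 CPM (SD, n = 8 each), with 77 to 276 reads per *GFP* library and 403 to 1523 per *Dbx2* library. The log2 fold change of *Igfbp4* was 2.81 (SE 0.29, limma adjusted p = 2.75e-06). It was 2.67 (SE 0.40, adjusted p = 0.00103) in numbers 1 to 4 and 2.95 (SE 0.26, adjusted p = 2.45e-06) in numbers 5 to 8. The difference between the sets was 0.28 with a 95% interval of -0.74 to 1.29 (adjusted p = 0.807), and it changed sign without *GFP* sample 1, to -0.15, or without *Dbx2* sample 4, to -0.05. *Igfbp4* was called in each of the alternative fits and with each sample left out, over all samples and in both sets.

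*Igfbp3* (ENSMUSG00000020427, chr11:7206086-7213923, minus strand) encodes the main IGF carrier of the blood, where it forms a complex with IGF and the acid-labile subunit. Its values in *GFP*-NSPCs were 317.06, 206.33, 181.81 and 207.61 CPM in numbers 1 to 4 and 234.95, 269.61, 324.09 and 231.53 CPM in numbers 5 to 8. *Dbx2*-NSPCs had 155.07, 178.76, 143.93 and 70.33 CPM in numbers 1 to 4 and 115.1, 137.29, 114.22 and 115.47 CPM in numbers 5 to 8. Every *Dbx2* sample was below every *GFP* sample, but the gap was narrow in numbers 1 to 4, where the highest *Dbx2* sample was at 178.76 CPM and the lowest *GFP* sample at 181.81 CPM. The group means were 247 ± 52.4 and 129 ± 32.7 CPM (SD, n = 8 each), and the log2 fold change was -0.95 (SE 0.16, adjusted p = 0.000365). In numbers 5 to 8 the log2 fold change was -1.12 (SE 0.11, adjusted p = 4.94e-06). In numbers 1 to 4 it was -0.78 (SE 0.26, adjusted p = 0.0592) and did not pass, while it did with the number as a block (adjusted p = 0.0296), with edgeR (0.0436), with DESeq2 (0.0227), with a filter on a mean of 5 CPM (0.0418) and without *Dbx2* sample 2 (0.043), within a range of 0.0227 to 0.225 over all alternatives. The difference between the sets, -0.34 with a 95% interval of -0.92 to 0.24, did not pass (adjusted p = 0.535). It did without *Dbx2* sample 4, the lowest of the *Dbx2* samples (-0.63, adjusted p = 0.0334).

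**Figure D1:**
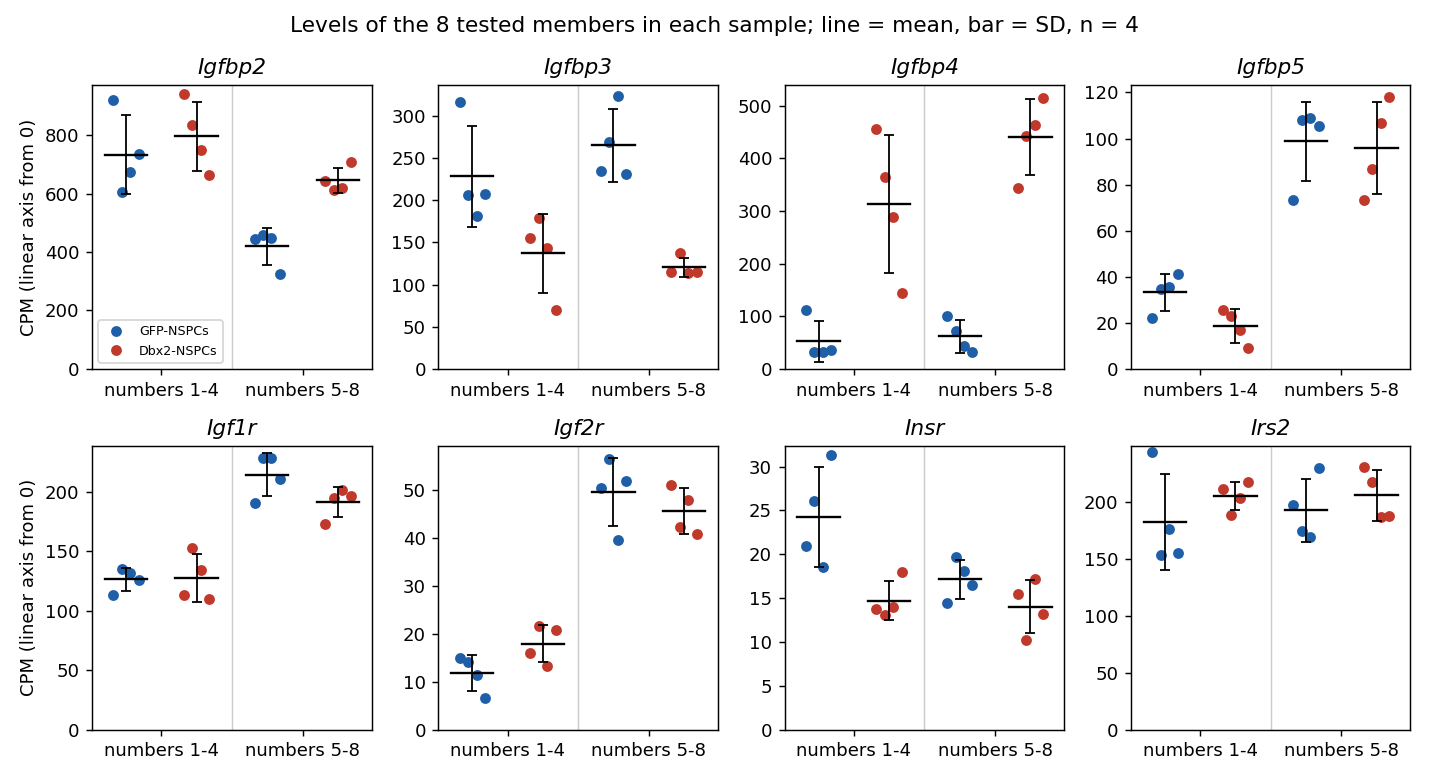
Level of each of the 8 tested genes in CPM on linear axes that start at 0, with a point for each sample, *GFP*-NSPCs in blue and *Dbx2*-NSPCs in red, and samples numbered 1 to 4 to the left of those numbered 5 to 8 (line, mean; bar, SD; n = 4). *Igfbp4* and *Igfbp3* separate the transgenes in both sets, *Igfbp2* in numbers 5 to 8 alone, *Insr* in numbers 1 to 4 alone, and *Igfbp5*, *Igf1r* and *Igf2r* separate the sets.

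*Igfbp2* (ENSMUSG00000039323, chr1:72824503-72852474, plus strand) encodes a binding protein that is abundant in brain and cerebrospinal fluid and carries an integrin-binding motif. The *GFP*-NSPCs had 920.15, 604.53, 672.19 and 735.13 CPM in numbers 1 to 4 and 445.51, 457.63, 449.09 and 326.12 CPM in numbers 5 to 8. The *Dbx2*-NSPCs had 941.04, 833.11, 747.97 and 664.51 CPM in numbers 1 to 4 and 642.72, 613.47, 617.59 and 707.35 CPM in numbers 5 to 8. The *GFP* samples numbered 5 to 8 were thus below all other 12 samples. In that set the log2 fold change was 0.63 (SE 0.10, adjusted p = 0.000465), from 420 ± 62.5 to 645 ± 43.4 CPM (SD, n = 4 each). In numbers 1 to 4 it was 0.13 with a 95% interval of -0.18 to 0.43 (adjusted p = 0.608). The difference between the sets was 0.51 (SE 0.18, unadjusted p = 0.009) and did not pass over all genes (adjusted p = 0.0772). It did with the number as a block (adjusted p = 0.0412), without *GFP* sample 2 (0.0401) and without *Dbx2* sample 1 (0.0308), and the adjusted p ranged from 0.0308 to 0.194 over all alternatives. Over all 16 samples the log2 fold change of *Igfbp2* was 0.38 (SE 0.17, adjusted p = 0.139). It passed with the number as a block (adjusted p = 0.026), with the set of numbers as a covariate (0.0128, and 0.00946 with edgeR) and without *GFP* sample 1 (0.0308), in a range of 0.00946 to 0.244. The fold difference in *Dbx2* itself was also larger in numbers 5 to 8, where the control cells held less *Dbx2*, and its part in the *Igfbp2* result was not tested.

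*Igfbp5* (ENSMUSG00000026185, chr1:72857932-72874884, minus strand), which encodes a binding protein that also attaches to extracellular matrix, is the neighbour of *Igfbp2* on chromosome 1. It was at 22.16, 34.56, 35.52 and 40.99 CPM in the *GFP*-NSPCs numbered 1 to 4 and at 73.14, 107.97, 108.94 and 105.28 CPM in those numbered 5 to 8. In *Dbx2*-NSPCs it was at 25.69, 23.07, 16.93 and 8.97 CPM in numbers 1 to 4 and at 73.21, 86.66, 106.54 and 117.83 CPM in numbers 5 to 8. All samples numbered 5 to 8 were above all samples numbered 1 to 4, by 2.97-fold in *GFP*-NSPCs and 5.15-fold in *Dbx2*-NSPCs in the ratio of means, and in each set the transgenes overlapped. The log2 fold change of *Igfbp5* with the transgene was -0.89 (SE 0.30, adjusted p = 0.0675) in numbers 1 to 4, where edgeR (adjusted p = 0.0466), DESeq2 (0.032) and the fits without *GFP* sample 1 (0.0314) or without *Dbx2* sample 1 (0.0436) called it, in a range of 0.0314 to 0.211. It was -0.05 with a 95% interval of -0.38 to 0.29 in numbers 5 to 8 (adjusted p = 0.871). The difference between the sets was 0.84 (SE 0.34, adjusted p = 0.132), and passed without *GFP* sample 1 (0.0469) and without *Dbx2* sample 1 (0.0448). Over all samples the log2 fold change of *Igfbp5* was -0.47 with a 95% interval of -1.51 to 0.58 (adjusted p = 0.583), in a fit without the set of numbers. It did not pass with the set as a covariate (adjusted p = 0.0945, and 0.155 with edgeR) or with the number as a block (0.147).

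*Igfbp6* (ENSMUSG00000023046, chr15:102144362-102149511, plus strand), whose protein prefers IGF2, was close to undetected. It had 3 reads in all, 1 in each of 3 *GFP* libraries, and 0 of 23493388 reads in *Dbx2*-NSPCs, which allows a level of up to 0.128 CPM over the group. *Igfbp7* (ENSMUSG00000036256, chr5:77349240-77408041, minus strand), whose protein binds IGF weakly and is made by vessels, had 3 reads in 1 *GFP* library and 8 reads in 3 *Dbx2* libraries. All of the *Igfbp7* reads were in samples numbered 1 to 4. Exons of *Igfbp7* overlap those of *Polr2b* on the opposite strand, which was at 80.2 to 119 CPM in each library, and since the strand used in counting is not given, these few reads cannot be told apart from reads of *Polr2b*. No difference between the groups was detectable at this depth for either gene, and none was tested.

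*Igf1r* (ENSMUSG00000005533, chr7:67952827-68233668, plus strand) encodes the kinase receptor for IGF1 and IGF2. In numbers 1 to 4 it was at 113.21, 135.44, 131.64 and 126.3 CPM in *GFP*-NSPCs and at 113.34, 153.27, 134.49 and 110.15 CPM in *Dbx2*-NSPCs. In numbers 5 to 8 it was at 190.62, 228.81, 228.47 and 210.97 CPM and at 173.17, 195.38, 201.35 and 196.5 CPM. Again all samples numbered 5 to 8 were above all samples numbered 1 to 4, by 1.70-fold in *GFP*-NSPCs and 1.5-fold in *Dbx2*-NSPCs, and the transgenes overlapped in each set. The log2 fold change of *Igf1r* with the transgene was -0.08 with a 95% interval of -0.44 to 0.28 over all samples (adjusted p = 0.806). The interval was -0.26 to 0.27 in numbers 1 to 4 (adjusted p = 0.991) and -0.34 to 0.02 in numbers 5 to 8 (adjusted p = 0.191). *Igf1r* passed in none of the alternatives run, in any of these comparisons.

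*Igf2r* (ENSMUSG00000023830, chr17:12682406-12769664, minus strand), the clearance receptor, is imprinted in the mouse. It was at 14.91, 14.11, 11.4 and 6.66 CPM in the *GFP*-NSPCs numbered 1 to 4 and at 50.43, 56.44, 39.62 and 51.82 CPM in those numbered 5 to 8. In *Dbx2*-NSPCs it was at 16.05, 21.55, 13.35 and 20.81 CPM in numbers 1 to 4 and at 51.04, 42.24, 47.85 and 40.85 CPM in numbers 5 to 8. The sets did not overlap with either transgene, and the mean of numbers 5 to 8 over that of 1 to 4 came to 4.21 for *GFP* and 2.54 for *Dbx2*. The log2 fold change with the transgene was 0.25 (95% interval -0.64 to 1.14, adjusted p = 0.744) over all samples, 0.62 (0.03 to 1.21, adjusted p = 0.15) in numbers 1 to 4 and -0.12 (-0.40 to 0.16, adjusted p = 0.577) in numbers 5 to 8. The difference between the sets, -0.74 (SE 0.30), did not pass over all genes (adjusted p = 0.129). *Airn*, an antisense RNA that overlaps the gene but not its exons, was at 1.3 to 10.8 CPM, and reads of the 2 in shared sequence cannot be told apart without strand.

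*Insr* (ENSMUSG00000005534, chr8:3122061-3279617, minus strand) encodes the insulin receptor. It was at 20.95, 26.1, 18.57 and 31.32 CPM in the *GFP*-NSPCs numbered 1 to 4 and at 14.41, 19.63, 18.1 and 16.45 CPM in those numbered 5 to 8. The *Dbx2*-NSPCs had 13.81, 13.05, 14 and 17.94 CPM in numbers 1 to 4 and 15.49, 10.25, 17.16 and 13.17 CPM in numbers 5 to 8. The transgenes did not overlap in numbers 1 to 4, by a gap from 17.94 to 18.57 CPM, and overlapped in numbers 5 to 8. Over all samples the log2 fold change of *Insr* was -0.49 (SE 0.16, adjusted p = 0.0422), from 20.7 to 14.4 CPM in the means. This call rested on a narrow margin: it was lost with no filter (adjusted p = 0.0593), with median-of-ratios or TMM scaling (0.0563 each) and in 12 of the 16 fits that left out 1 sample (up to 0.0866). The call was kept with the set of numbers as a covariate (adjusted p = 0.019, and 0.0175 with edgeR) and with the number as a block (0.0325). Without a covariate, edgeR (0.0405) and DESeq2 (0.0267) kept it too. In numbers 1 to 4 the log2 fold change was -0.68 (SE 0.20, adjusted p = 0.0398). That call was lost in 5 of 8 fits without 1 sample (up to 0.132) and with no filter, other scaling or no trend (0.0501 to 0.0768). It was kept with the number as a block (0.0358), with edgeR (0.0338) and with DESeq2 (0.0321). In numbers 5 to 8 the log2 fold change was -0.30 with a 95% interval of -0.73 to 0.14 (adjusted p = 0.327), and the difference between the sets did not pass (0.39, adjusted p = 0.485).

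*Irs2* (ENSMUSG00000038894, chr8:10984681-11008458, minus strand), which encodes an adaptor of both receptors, was at 243.73, 153.43, 175.62 and 155.29 CPM in the *GFP*-NSPCs numbered 1 to 4 and at 196.71, 173.91, 169.05 and 229.47 CPM in those numbered 5 to 8. In *Dbx2*-NSPCs it was at 210.94, 188.17, 202.87 and 216.72 CPM and at 230.55, 217.12, 186.45 and 187.05 CPM. The *GFP* range, 153.43 to 243.73 CPM, held all *Dbx2* samples. The log2 fold change was 0.15 with a 95% interval of -0.06 to 0.35 (adjusted p = 0.335), and *Irs2* passed in no fit other than that of numbers 1 to 4 without *GFP* sample 1, the highest of all samples (0.34, adjusted p = 0.0321). An RNA gene, *9530052E02Rik*, overlaps exons of *Irs2* on the opposite strand and has no row in the table.

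**Figure D2:**
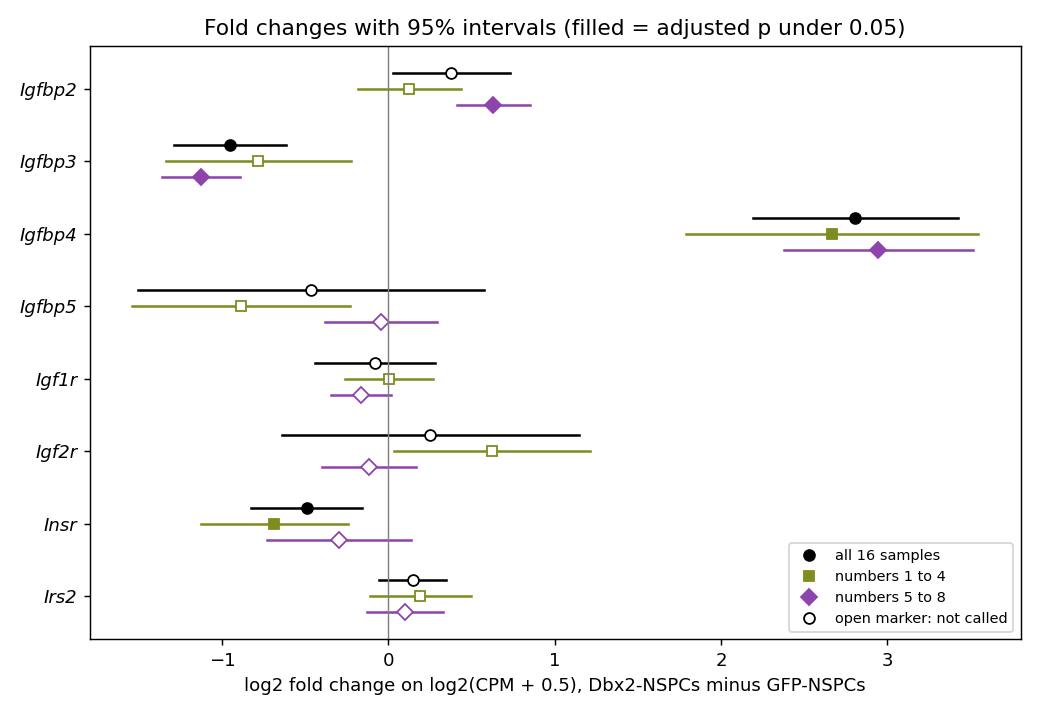
Log2 fold change of each tested gene on log2(CPM + 0.5), *Dbx2*-NSPCs minus *GFP*-NSPCs, with its 95% interval, over all 16 samples (black), in numbers 1 to 4 (green) and in numbers 5 to 8 (purple), where a filled marker has an adjusted p under 0.05. *Igfbp4* lies between 2.67 and 2.95 and *Igfbp3* between -1.12 and -0.78, and the other 6 genes lie between -0.89 and 0.63.

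Counted by set, 2 of the 8 tested genes were called in numbers 1 to 4 (*Igfbp4* higher, *Insr* lower), where 15.6% of all tested genes were (8.19% higher, 7.37% lower), and 3 in numbers 5 to 8 (*Igfbp2* and *Igfbp4* higher, *Igfbp3* lower), where 23.2% were (11.5% higher, 11.7% lower). Transgenes without overlap were seen for 3 of the 8 in numbers 1 to 4 and for 3 in numbers 5 to 8, against 19.6% and 24.8% of all tested genes. Of the differences between the sets in the fold change, 0 of 8 passed limma's test, and edgeR and DESeq2 also called 0, where limma called 9.44% of all tested genes. Of the 8, 3 (*Igfbp2*, *Igfbp5* and *Igf2r*) had an unadjusted p under 0.05 there. Between the sets themselves, 4 of the 8 genes did not overlap in *GFP*-NSPCs (*Igfbp2*, lower in numbers 5 to 8, and *Igfbp5*, *Igf1r* and *Igf2r*, higher), against 28.9% of all tested genes. In *Dbx2*-NSPCs it was 3 of the 8, the same less *Igfbp2*, against 19.8%.

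**Figure D3:**
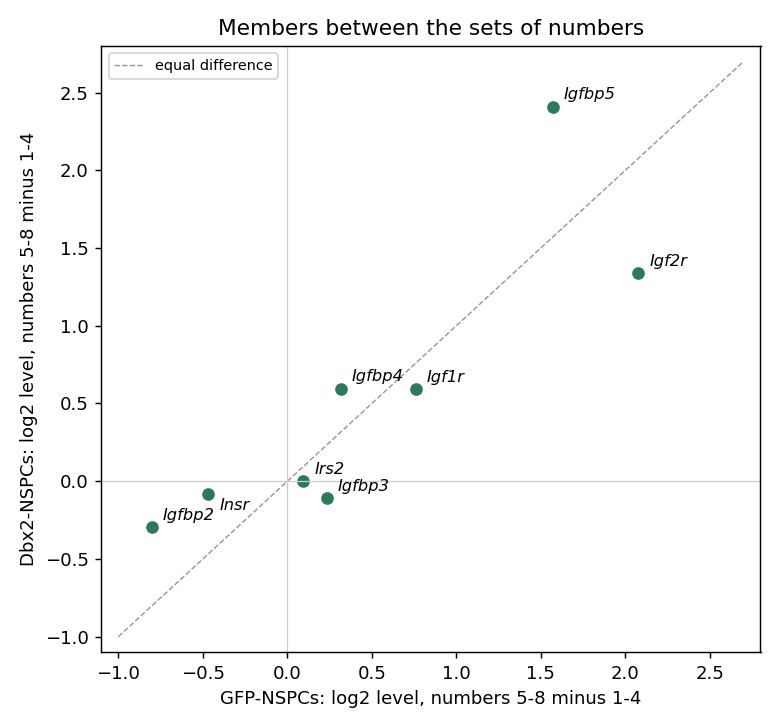
Difference of the mean log2 level between the samples numbered 5 to 8 and those numbered 1 to 4, in *GFP*-NSPCs (horizontal axis) and in *Dbx2*-NSPCs (vertical axis), with a point for each tested gene and a dashed line of equal differences. *Igfbp5* (1.57 and 2.41), *Igf2r* (2.08 and 1.34) and *Igf1r* (0.76 and 0.59) lie in the upper right, and *Igfbp2* (-0.80 and -0.29) in the lower left.

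Over the 16 samples, the log2 levels of *Igfbp5* and *Igf1r* (Pearson r = 0.90), *Igf1r* and *Igf2r* (0.85) and *Igfbp5* and *Igf2r* (0.72) varied together, and those of *Igfbp2* and *Igf1r* in opposite directions (-0.74), as did *Igfbp4* and *Insr* (-0.72), *Igfbp2* and *Igf2r* (-0.64), *Igfbp2* and *Igfbp5* (-0.63) and *Igfbp3* and *Igfbp4* (-0.60). These are descriptions over samples that share the transgene and the set of numbers. Among the 8651 tested genes averaging 10 CPM or more, the pattern most like that of *Igfbp4* belonged to *Fgfrl1*, a receptor-like protein that binds FGF (r = 0.96), *Serpine2*, a secreted protease inhibitor (0.96), and *Ppic*, a cyclophilin (0.94). For *Igfbp3* the nearest were *Peli1*, a ubiquitin ligase (0.90), *Sntb2* (0.90) and *Txn1*, thioredoxin (0.89). For *Igfbp2* they were *Lmbrd1* (0.96), *Smpd1*, the acid sphingomyelinase (0.94), and *Ntrk2*, the BDNF receptor (0.93). *Igfbp5* was most like *Rap1a* (0.94), *Kdm3a* (0.93) and *Pde3b* (0.93). *Igf1r* was most like *Pan3* (0.96), *Polr2a*, the largest subunit of RNA polymerase II (0.96), and *Rell1* (0.96), and *Igf2r* was most like *Gxylt1* (0.94), *Crebbp*, a histone acetyltransferase (0.94), and *Rapgef3* (0.93). The likeness was lower for *Insr* (*Rpl23a* 0.89, *Mrs2* 0.85, *Nckap5* 0.85) and for *Irs2* (*Phkb* 0.82, *Chd1l* 0.77, *Cyb561d2* 0.75).

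The median differences of the genes around *Igfbp4*, *Igfbp3* and *Igf2r* were small beside their own. For the 40 nearest genes that averaged 10 CPM or more around *Igfbp4*, 20 on each side, the median log2 fold change with the transgene was 0.00 and 5 were called. Around *Igfbp3* the median of 40 was -0.12 with 7 called, around *Igfbp2* it was 0.11 with 10 called, and around *Igfbp5* it was 0.14 with 11 called. The windows of *Igfbp2* and *Igfbp5*, which are neighbours, overlap over most of their length and are not separate regions. Of all tested genes, without the bound of 10 CPM, 15.8% were called. In numbers 5 to 8, where *Igfbp2* was called, the median around it was 0.23 beside 0.63 for *Igfbp2* itself. Around *Igf2r* the median difference between the sets of numbers came to 0.05 for *GFP* and 0.10 for *Dbx2*, beside 2.08 and 1.34 for *Igf2r* itself.

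Other genes of the insulin and IGF pathway were taken from a list of 85 genes in 10 roles, of which 69 were tested. Over all samples 10 of the 69 were called, 6 higher and 4 lower in *Dbx2*-NSPCs, which is 14.5% beside 15.8% of all genes, and the median log2 fold change was -0.08 beside -0.02. In numbers 1 to 4 it was 11 of 69 (15.9%, beside 15.6% of all tested genes) and in numbers 5 to 8 it was 17 of 69 (24.6%, beside 23.2%), all near the share over all genes. The ligands were at the floor: *Igf1* had at most 10 reads in a library (3.21 CPM) and was at 0 in 11 of 16, *Igf2* had 3 reads in 2 *GFP* libraries, and neither was tested. *Igfbp1*, the neighbour of *Igfbp3*, had 2 reads in 1 *Dbx2* library.

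A further list held proteases that cut the binding proteins, together with regulators of these proteases. *Pappa*, the gene of PAPP-A, named after its values were seen, was at 0.041 and 0 CPM in the means and was not tested. *Htra3*, a secreted serine protease, was higher in *Dbx2*-NSPCs, with a lowest, median and highest value of 0.82, 3.70 and 19.74 CPM in *GFP*-NSPCs and 10.83, 22.2 and 27.29 CPM in *Dbx2*-NSPCs. Its log2 fold change was 2.0 (adjusted p = 0.00258), and it was the only gene of the 5 tested on that list to be called over all samples. In numbers 1 to 4 alone *Htra1*, named after its values were seen, was called lower (-0.62, adjusted p = 0.0378). The mRNA-binding protein gene *Igf2bp2* was lower in every *Dbx2* sample than in any *GFP* sample, at 53.1 ± 11.3 CPM against 15.95 ± 6.84 CPM (SD, n = 8 each), and its log2 fold change was -1.82 (adjusted p = 6.84e-05). Its relative *Igf2bp3*, named after its values were seen because it lies below 10 CPM, was at 0.353 and 5.495 CPM in the means and was called higher in *Dbx2*-NSPCs (adjusted p = 0.0375), with a log2 fold change of 0.11 in the first set of numbers, 3.82 in the second, and a difference between them that passed (adjusted p = 0.000105). *Lrp1*, an endocytic receptor that also binds IGFBP3, was lower (44.1 ± 9.02 against 29.6 ± 4.42 CPM, log2 fold change -0.56, adjusted p = 0.00591). It passed in numbers 1 to 4 (adjusted p = 0.0126) and not in numbers 5 to 8 (0.0898).

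Inside the cell, 0 of 10 tested receptor adaptors and 0 of 15 genes of the mTORC1 arm were called over all samples, where 15.8% of all tested genes were. Within the sets, 1 adaptor was called in each, and 1 mTORC1 gene in numbers 1 to 4 and 3 in numbers 5 to 8. Of all tested genes, 15.6% were called in numbers 1 to 4 and 23.2% in numbers 5 to 8. The difference between the sets passed for 2 genes of each of these 2 lists. It passed for 6 of the 69 tested genes of the whole pathway list (8.7%), near the 9.44% of all tested genes. Among those that passed, and named after their values were seen, were the adaptor *Grb2* (0.76, adjusted p = 0.00106), the kinase *Mtor* (-1.58, adjusted p = 0.00159) and its inhibitor *Deptor* (-1.69, adjusted p = 0.0173). *Mtor* had a log2 fold change of 0.44 (adjusted p = 0.272) in the first set and -1.15 (adjusted p = 0.000767) in the second. *Irs1* was at 37.5 ± 4.27 and 29.3 ± 5.88 CPM, and its log2 fold change of -0.37 (adjusted p = 0.0597) passed with the number as a block (0.0485), with the set as a covariate (0.0399) and without *GFP* sample 8 (0.0408), *Dbx2* sample 2 (0.0426) or *Dbx2* sample 6 (0.0469). It did not pass with the set as a covariate in edgeR (0.0541), and the range over all alternatives was 0.0399 to 0.112. Of 11 tested inhibitors and feedback genes, *Socs3* was higher (1.78, adjusted p = 0.0166) and *Socs2* lower (-1.22, adjusted p = 0.00324). *Socs3* overlapped between the groups, at 1.33 to 14.1 CPM in *GFP*-NSPCs and 3.23 to 34.6 CPM in *Dbx2*-NSPCs. So did *Socs2*, at 4.91 to 16.62 CPM and 2.28 to 6.42 CPM. Both encode cytokine-induced inhibitors of receptor signaling. Of 10 PI3K and Akt genes tested, the kinase gene *Akt2* was higher (70.5 ± 17.3 against 104 ± 7.37 CPM, log2 fold change 0.59, adjusted p = 0.00247). Of 13 FoxO factors and known FoxO targets, *Bcl2l11*, which encodes the cell death protein BIM (19.6 ± 6.97 against 39.1 ± 10.4 CPM, 1.0, adjusted p = 0.00156), and *Sesn3* (0.51, adjusted p = 0.0018), an mTORC1 inhibitor, were higher and *Cdkn1b*, which encodes the cell cycle inhibitor p27, was lower (-0.44, adjusted p = 0.0103). By set, *Socs3* (limma adjusted p = 0.212), *Akt2* (0.0634), *Sesn3* (0.105) and *Cdkn1b* (0.0587) did not pass in numbers 1 to 4. *Socs2* did not pass in numbers 5 to 8 (0.165). Each of them passed in the other set, and *Bcl2l11* passed in both. The difference between the sets passed for none of these genes.

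**Figure D4:**
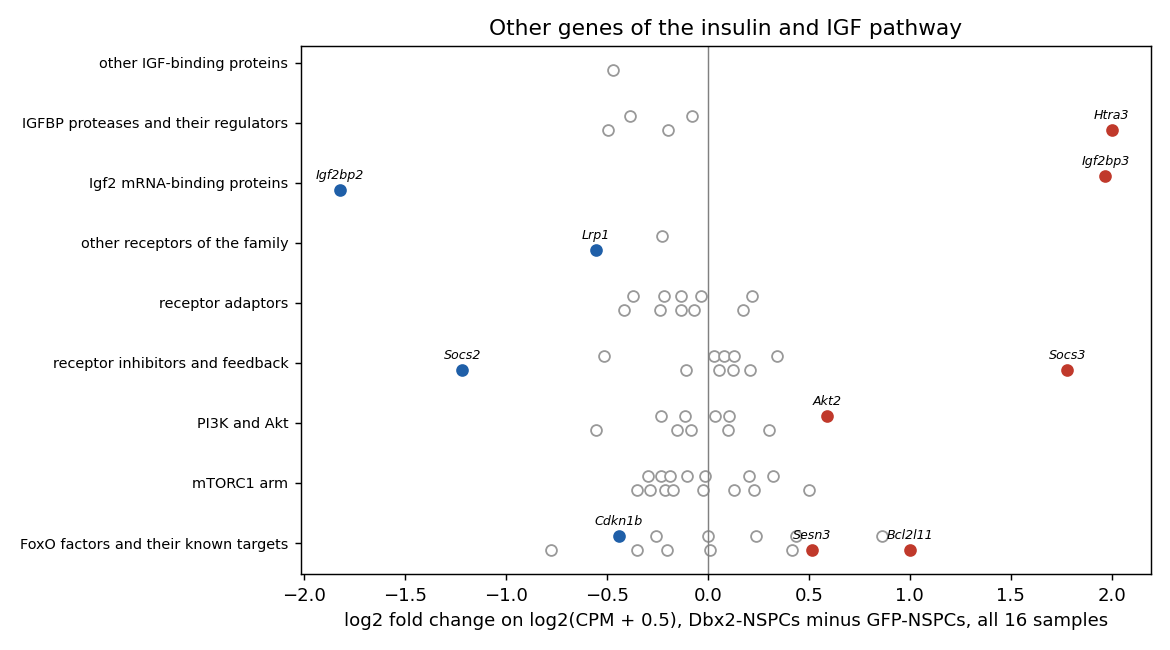
Log2 fold change on log2(CPM + 0.5) over all 16 samples, *Dbx2*-NSPCs minus *GFP*-NSPCs, of the 69 tested genes of the insulin and IGF pathway list, in rows by role (red, called higher; blue, called lower; open grey, not called). The 10 called genes are named and lie between -1.82 (*Igf2bp2*) and 2.0 (*Htra3*), and the median of the list is -0.08.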

How the data were processed

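Messenger RNA was measured by QuantSeq 3' mRNA-Seq in 8 *GFP*-NSPC and 8 *Dbx2*-NSPC samples. The authors trimmed reads with bbduk, checked them with FastQC 0.11.8 and aligned them with STAR 2.5.0a to GRCm38 (mm10) with Ensembl release 96. The counting tool and strand are not given in the sources used here. The authors deposited 1 table of CPM with 2 decimals for 30386 genes and 16 samples, scaled by the total alone. All columns were used. Low values gave the CPM of 1 read, and 99.998% of values above 0 then came out as whole reads within 0.0051 CPM of rounding. Depth sets a floor of 3 reads, or 0.911 to 1.66 CPM in a library, which covers counting error only. For the 12533 genes over 1 CPM in 4 or more samples, log2(CPM + 0.5) was fitted by limma 3.58.1 under R 4.3.3 (lmFit, eBayes with trend, 2-sided, Benjamini-Hochberg over all tested genes, threshold 0.05), over all 16 samples, within each set of numbers, and for the interaction of transgene and set. Fold changes on this scale understate the change of low genes. The cell line covariate of the study's methods was not fitted, since the labels do not give it.

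Same-numbered samples deviated from their group means together in all 8 pairs (correlations 0.152 to 0.303). The main fits did not pair the samples, and the number was fitted as a block in an alternative alone. That pairing rests on the labels' numbers and on this check alone. Samples of other numbers in the same set correlated about as much (means 0.16 to 0.242), and 4 of the 8 numbers correlated best with their own. Around the means of group and set the correlations were -0.0074 to 0.119. Alternatives were pseudocounts of 0.1 and 2, no filter or a mean of 5 CPM, median-of-ratios and TMM scaling, no trend, the recovered reads in edgeR 4.0.16 and in DESeq2 1.42.0 (1928 and 2197 genes called over all samples, 1982 by limma), the number as a block, the set as a covariate and each sample left out. The fits were also run on simulated counts. These held no difference in control level between the sets of numbers and no likeness of same-numbered samples, so that run does not test the fits on either. The labels do not tie samples to animals, so p-values measure the spread between these cultures. Each group of 8 holds repeat cultures of 2 lines, and the p-values do not measure the spread between lines in general. If each set of numbers holds 1 pair of lines, a transgene difference within a set cannot be told apart from a difference between those 2 lines. All 10 members, *Dbx2*, and pathway genes called over all samples with at least 10 CPM in a group were named by rule, with *Igf1*, *Igf2*, *Igfbp1* and *Irs1*, and the 3 most correlated genes per member. Of the pathway list, 1 gene is not reported here. The members and lists were chosen with earlier results of these data known. Positions are those of GENCODE mouse release 21 (GRCm38).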

Additional observations from a re-analysis of the deposited data

Results flagged for a closer look

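Among 48 groups of 4 or 8 samples of the 8 tested genes, 4 held a sample far from the others of its group (Dixon's test at 95%), and chance flags about 1 in 20 groups. *Igfbp2* was at 326.12 CPM in the *GFP* sample numbered 8, below the other 3 of that set. *Igfbp3* was at 137.29 CPM in the *Dbx2* sample numbered 6, above the other 3. *Igfbp4* was at 111.19 CPM in the *GFP* sample numbered 1, above the other 3 of its set (31.28 to 35.99 CPM). *Igfbp5* was at 73.14 CPM in the *GFP* sample numbered 5, below the other 3. Without *GFP* sample 1, *Igfbp4* had a log2 fold change of 3.10 in numbers 1 to 4. The calls of *Igfbp2*, *Igfbp3* and *Igfbp4* in numbers 5 to 8 were kept with each of the 8 samples left out. The cause of these 4 values was not tested.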

How the results depend on the processing

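Over all samples, the count of called members stayed between 2 and 4 under every alternative. With the set of numbers as a covariate, 16 pathway genes (8 higher, 8 lower) and 3034 genes were called in place of 10 and 1982. The 3 members called in numbers 5 to 8 stayed 3 under every alternative. The count in numbers 1 to 4 was 1 with no filter, median-of-ratios scaling, TMM scaling or no trend, 4 with edgeR and 4 with DESeq2, and 1 to 4 with samples left out. The count of members whose fold change differed between the sets was 1 with the replicate block and 0 to 2 with samples left out. The member that the replicate block called for a difference between the sets was *Igfbp2*. The block also called *Igfbp2* and *Irs1* over all samples and *Igfbp3* and *Dbx2* in numbers 1 to 4, and changed no other call of these genes. Signs turned, at adjusted p of 0.686 or more, for *Igf1r* in numbers 1 to 4 (from -0.08795 to 0.07031 with samples left out, -0.05 without *GFP* sample 1, -0.08795 without *Dbx2* sample 2, -0.03 without *Dbx2* sample 3), *Igfbp5* in numbers 5 to 8 (from -0.1838 to 0.0758, 0.0024 and 0.00668 without *GFP* samples 6 and 7, 0.0758 without *Dbx2* sample 5) and the *Igfbp4* difference between sets (from -0.154 without *GFP* sample 1 to 0.5558 without *GFP* sample 5, and -0.05 without *Dbx2* sample 4). The genes called in numbers 1 to 4 fell from 1950 to 1286 without *GFP* sample 3 and to 1299 with no filter, which tests more genes. The cause of the other changes was not tested. At this depth *Igfbp6* and *Igfbp7* had at most 4 reads in any library.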
